A study of Caenorhabditis elegans with 8 samples.

Results

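The genes described here encode chaperones, proteases and signalling proteins of the mitochondrial unfolded protein response of the nematode Caenorhabditis elegans. The set names 10 genes, the matrix chaperones hsp-6, hsp-60 and dnj-10, the proteases lonp-1, spg-7 and ymel-1, the prohibitins phb-1 and phb-2, the peptide transporter haf-1 and the transcription factor atfs-1, and a row belonged to it when its gene symbol was among these names. Of the 14396 RefSeq transcripts listed in the count tables, 9 belonged to the set, 1 for each gene except atfs-1. All 9 passed the filter on low counts, so none of the listed genes was lost to it. No row carried the symbol or an accession of atfs-1, which was not analysed here. Its exon models comprise 4 current RefSeq transcripts.

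Total RNA of whole worms of the Bristol strain was sequenced at the L4 stage, the last larval stage. The groups were treated damt-1 worms of the P0, F1 and F2 labels, treated wild type (WT) worms of the same labels, damt-1 untreated and WT untreated, with 2 libraries in each of the 8 groups. Worms of all groups were raised at 22 °C, and the treated groups received 1.92 µM antimycin A, which blocks respiratory chain complex III, on the agar. No untreated group is labelled F1 or F2, so treatment and generation cannot be told apart in the F1 and F2 groups. The descriptions differ on whether exposure began in the egg or at the first larval stage. They do not say whether the parents of F1 and F2 worms had been exposed. They give neither the allele of damt-1, a gene described as a DNA adenine methyltransferase, nor whether the 2 libraries of a group came from separate cultures. The p-values therefore measure the spread between these libraries, which may be technical.

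Mitochondria import most of their proteins unfolded, and chaperones and proteases in the matrix and inner membrane fold them or degrade those that fail. In C. elegans, stress in the organelle keeps the transcription factor ATFS-1 out of mitochondria and sends it to the nucleus, where it raises the transcription of chaperone and protease genes. Reporters of hsp-6 and hsp-60 are the usual readouts of this response in living worms.

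Library totals ran from 3541390 to 4365451 counts. The damt-1 transcript itself had counts in all 16 libraries. Its level was 17.98 and 16.5 CPM (counts scaled to the library total) in damt-1 P0, against 28.2 and 23.7 CPM in WT P0, 21.1 and 16 CPM in damt-1 F1, against 27.5 and 35.3 CPM in WT F1, and 23.9 and 22.0 CPM in damt-1 F2, against 28.8 and 31.5 CPM in WT F2. Both damt-1 libraries were lower than both WT libraries in each treated generation, while the untreated groups overlapped, with 21.8 and 16.98 CPM in damt-1, against 19.9 and 19.6 CPM in WT. Summed over 14 germ line marker transcripts, the level was 752 to 780.2 CPM in damt-1 P0, 771 to 779 CPM in damt-1 F1 and 713 to 776 CPM in damt-1 F2, against 965 to 978 CPM in damt-1 untreated. In WT the same sum was 1486 to 1548 CPM in P0, 1758 to 1774 CPM in F1 and 1734 to 1757 CPM in F2, against 1127 to 1162 CPM in WT untreated. In whole worms, fewer cells of a type and less RNA per cell cannot be told apart.

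Per kilobase of exon, the level of the 9 genes in untreated WT worms spanned a wide range. hsp-6, the mitochondrial Hsp70, stood at 268 ± 11.7 CPM per kb (SD, n = 2), and the prohibitins phb-1 and phb-2, which form ring complexes in the inner membrane, stood at 264 ± 6.38 and 263 ± 12.4 CPM per kb. These 3 levels do not differ beyond their spread. Next came lonp-1, the matrix Lon protease, at 131 ± 3.5 CPM per kb and spg-7, a subunit of the matrix-facing AAA protease of the inner membrane, at 127 ± 0.561 CPM per kb. The ± ranges of this pair overlapped only narrowly. ymel-1, the AAA protease that faces the intermembrane space, had 84.4 ± 1.24 CPM per kb, and hsp-60, the mitochondrial chaperonin, had 39.9 ± 1.32 CPM per kb. The lowest levels were those of haf-1, a half-transporter that exports peptides from the matrix, at 12.2 ± 1.09 CPM per kb, and of dnj-10, a mitochondrial DnaJ co-chaperone, at 2.70 ± 0.108 CPM per kb. The level of hsp-60 and dnj-10 rests on 1 listed transcript of 3 and 2 current RefSeq transcripts, and reads in exons shared by isoforms may not have been counted. Across protein-coding genes, 73.0% of those with 1 RefSeq transcript were listed, against 43.7% of those with 3.

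**Figure D1:**
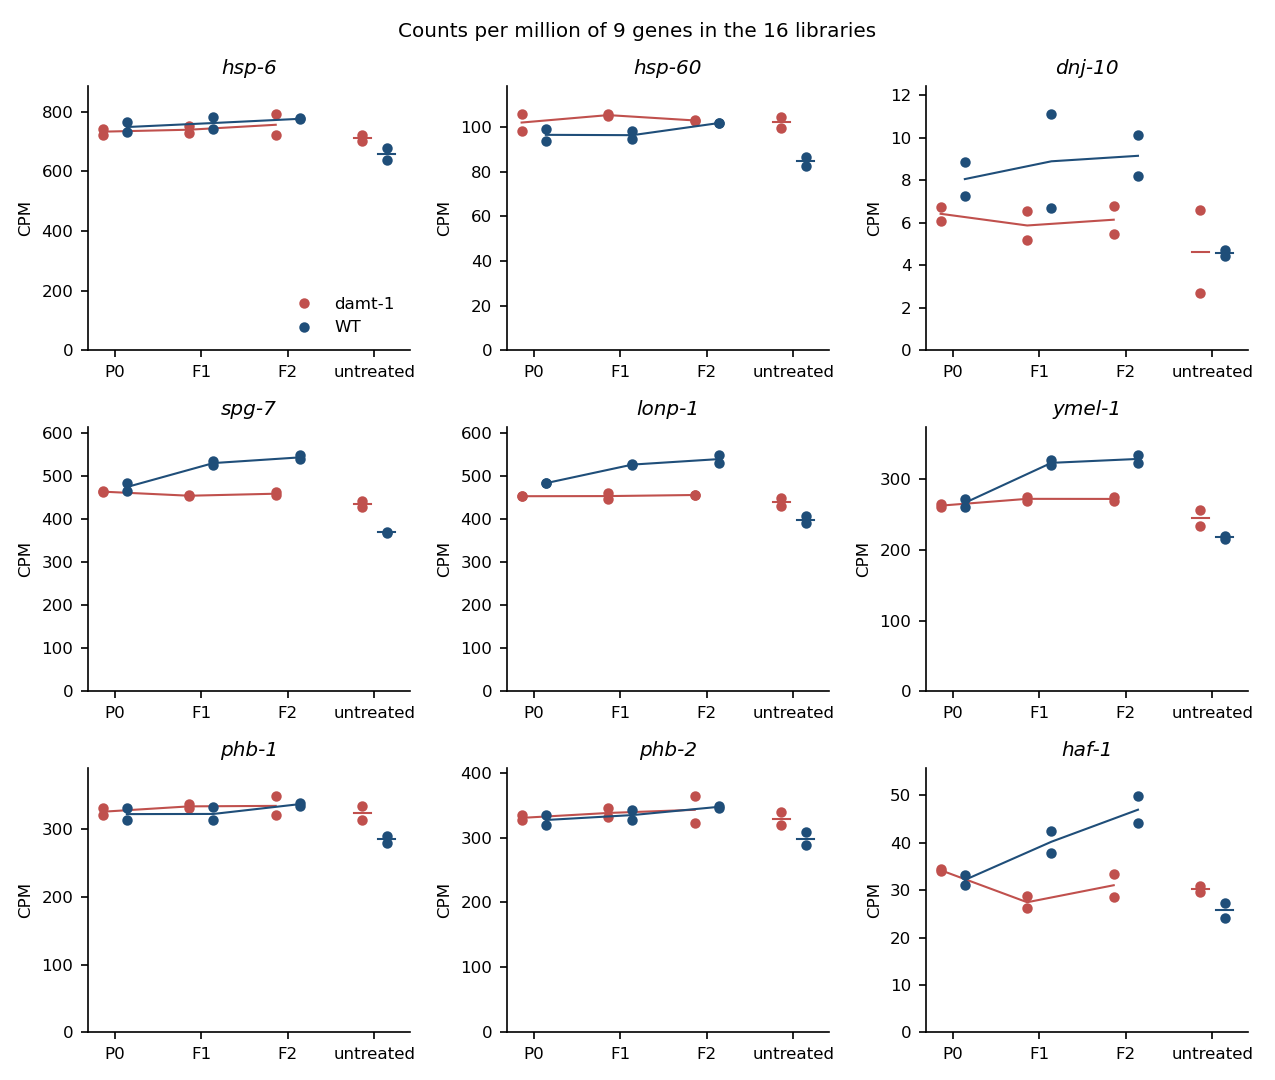
Levels of 9 mitochondrial chaperone, protease, prohibitin and transporter genes in CPM (vertical axis, from 0) in the P0, F1, F2 and untreated groups of damt-1 (red) and WT (blue). Points are single libraries, 2 in each group, lines join the means of the treated groups and a short bar marks the untreated mean; spg-7, lonp-1, ymel-1 and haf-1 separate the genotypes in F1 and F2, with every WT library above every damt-1 library.

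The first question was whether these genes were higher in treated than in untreated WT worms. The proteases were higher in every treated generation, while hsp-6, hsp-60 and the prohibitins differed by smaller amounts and dnj-10, with few reads, by larger ones. In WT P0, 5 of the 9 genes were higher and 0 lower than in WT untreated at an adjusted p under 0.05, where 13% of all transcripts tested were called higher. In WT F1 all 9 were higher, against 26.2% of all transcripts, and in WT F2 all 9 were again higher, against 25.9%. The median log2 difference of the 9 genes was 0.28 in P0, 0.40 in F1 and 0.44 in F2, where the median of all transcripts was 0.01, 0.03 and 0.03. Adjusted p-values are from edgeR's quasi-likelihood test with Benjamini-Hochberg adjustment over all transcripts tested in a comparison. Throughout, the share of all transcripts whose libraries separate without overlap was not counted, so separation of libraries is given as a description.

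Among the proteases, spg-7 had 484 and 465 CPM in WT P0, 534 and 526 CPM in WT F1 and 548 and 538 CPM in WT F2, against 371 and 369 CPM in WT untreated. Every treated library lay above both untreated ones, and F1 and F2 lay above P0. Its log2 difference from untreated was 0.36 ± 0.037 (SE) in P0, 0.52 ± 0.036 in F1 and 0.56 ± 0.036 in F2, with adjusted p-values of 7.64e-08, 2.33e-11 and 7.02e-12. lonp-1 had 484 and 483 CPM in WT P0, 525 and 529 CPM in WT F1 and 531 and 548 CPM in WT F2, against 407 and 392 CPM in WT untreated. It likewise showed no overlap with untreated, at log2 differences of 0.28 ± 0.037, 0.40 ± 0.036 and 0.44 ± 0.036 in P0, F1 and F2. ymel-1 had 272 and 261 CPM in WT P0, 319.8 and 327 CPM in WT F1 and 324 and 334 CPM in WT F2, against 216 and 220.4 CPM in WT untreated. Its log2 difference was 0.29 ± 0.047 in P0, 0.57 ± 0.045 in F1 and 0.59 ± 0.045 in F2. All 9 of these protease calls held when any of the 16 libraries was left out and under the other 9 alternatives, with a highest adjusted p of 0.0045 for ymel-1 in P0.

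haf-1 passed the threshold in F1 and F2 and missed it in P0. It had 31 and 33.3 CPM in WT P0, 37.9 and 42.6 CPM in WT F1 and 49.8 and 44.2 CPM in WT F2, against 24.1 and 27.4 CPM in WT untreated. The treated libraries all lay above the untreated ones, and the log2 difference of 0.32 ± 0.135 in P0 did not pass the threshold (adjusted p = 0.104). It was 0.64 ± 0.129 in F1 and 0.86 ± 0.126 in F2, with adjusted p-values of 0.000242 and 4.89e-06, and both calls held under all 25 alternatives. haf-1 shares 64 exon bases with C30H6.9 on the opposite strand, and the sources used here do not say whether counting used the strand.

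The log2 differences of the matrix chaperones hsp-6 and hsp-60 were smaller. hsp-6 had 765 and 732 CPM in WT P0, 783 and 740.2 CPM in WT F1 and 774 and 777 CPM in WT F2, against 679.5 and 639 CPM in WT untreated. All treated libraries were above both untreated libraries, and the treated generations overlapped or lay close together. Its log2 difference was 0.18 ± 0.043 in P0, 0.21 ± 0.043 in F1 and 0.24 ± 0.043 in F2, a rise of 1.14-fold in P0, with adjusted p-values of 0.00301, 0.000308 and 7.99e-05. hsp-60 had 99 and 94 CPM in WT P0, 98.0 and 94.7 CPM in WT F1 and 102 CPM in both WT F2 libraries, against 86.5 and 82.6 CPM in WT untreated. Its log2 difference of 0.19 ± 0.064 in P0 missed the threshold (adjusted p = 0.0544), while 0.19 ± 0.063 in F1 and 0.27 ± 0.063 in F2 passed it (adjusted p = 0.0274 and 0.00119). The call of hsp-60 in F1 was lost without WT untreated replicate 2, either WT F1 library or WT F2 replicate 2, and DESeq2 gave an adjusted p of 0.16 for it. For hsp-6 in P0 the call was lost without WT untreated replicate 2 or WT P0 replicate 1.

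dnj-10 rests on few reads. It had 7.24 and 8.87 CPM in WT P0, 6.68 and 11.1 CPM in WT F1 and 10.1 and 8.19 CPM in WT F2, against 4.46 and 4.72 CPM in WT untreated, which are 17 and 20 counts. All treated libraries were higher than both untreated ones, and those of F1 lay far apart. The log2 difference was 0.81 ± 0.370 in P0 (adjusted p = 0.135), 0.96 ± 0.362 in F1 and 0.99 ± 0.363 in F2, where the adjusted p-values were 0.0336 and 0.0288. Without WT F1 replicate 2 the F1 value was 0.51 (adjusted p = 0.41), without WT F2 replicate 1 the F2 value was 0.83 (adjusted p = 0.16), and without either WT untreated library both calls were lost.

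The prohibitins behaved much like hsp-6. phb-1 had 331 and 313 CPM in WT P0, 332 and 313 CPM in WT F1 and 334 and 339 CPM in WT F2, against 289.5 and 279.8 CPM in WT untreated. phb-2, whose transcript shares 62 exon bases with F13H8.5 on the opposite strand, had 335 and 319 CPM in WT P0, 342 and 327 CPM in WT F1 and 346 and 349 CPM in WT F2, against 308 and 288 CPM in WT untreated. For both genes every treated library was above both untreated ones. phb-1 differed by 0.18 ± 0.048 in P0, 0.18 ± 0.048 in F1 and 0.24 ± 0.048 in F2 on the log2 scale, and all 3 passed (adjusted p = 0.00953, 0.00372 and 0.000199). phb-2 differed by 0.13 ± 0.052 in P0, 0.17 ± 0.051 in F1 and 0.22 ± 0.051 in F2, with adjusted p-values of 0.0694, 0.00931 and 0.000966. In P0 the call of phb-1 was lost without WT untreated replicate 2 or WT P0 replicate 1, which with hsp-6 leaves 3 genes called. In F1 that of phb-1 was lost without WT F1 replicate 1, and that of phb-2 without WT untreated replicate 2, WT F1 replicate 1 or WT F2 replicate 2.

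The scale of the libraries bears on these small differences. When only transcripts with a density below 0.2 counts per nucleotide set the normalization factors, the median of all transcripts shifted by -0.15 in WT F1 and -0.13 in WT F2 on the log2 scale. The genes called higher were then 3 in P0, 4 in F1 and 5 in F2: spg-7, lonp-1 and ymel-1 in every generation, haf-1 in F1 and F2, and dnj-10 in F2. The share of all transcripts called with these factors is not given here. Under that scaling hsp-6 differed by 0.06 in F1 (adjusted p = 0.46), and hsp-60, phb-1 and phb-2 by 0.04, 0.03 and 0.02. A change of scale moves a gene and the median of all transcripts alike, so the distance between them cannot tell the scalings apart. In F1 that distance was 0.49 for spg-7, 0.54 for ymel-1 and 0.18 for hsp-6 under both.

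In the authors' deposited tables, 4 of the 9 genes had an adjusted p under 0.05 in WT P0, 5 in WT F1 and 7 in WT F2. The share of all transcripts that passed there is not given here, so the authors' counts for either genotype stand without a background. The authors' deposited tables for WT list only fold changes above 0, and all 9 genes are in them. The number in the authors' deposited tables was 0 in each of damt-1 P0, F1 and F2, where the lowest adjusted p was 0.428, that of ymel-1 in F1.

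**Figure D2:**
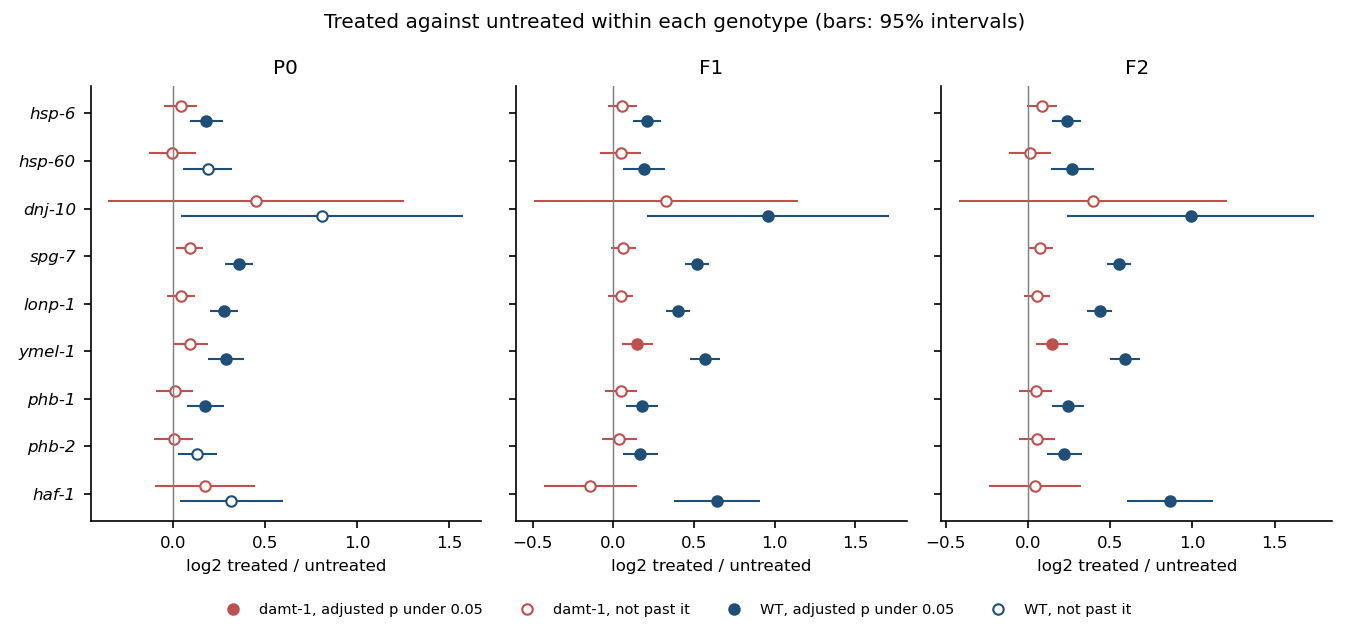
Log2 difference of treated from untreated worms (horizontal axis) for 9 genes in P0, F1 and F2, damt-1 in red above WT in blue; bars are 95% intervals and filled points passed an adjusted p of 0.05. In WT all 9 points are filled in F1 and F2, and in damt-1 only ymel-1 is, at 0.15 in both generations.

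In damt-1 worms the same treatment left most of these genes without a called difference. None of the 9 was called in damt-1 P0, where 8.41% of all transcripts were called higher, and DESeq2 also called 0. By edgeR 1 gene passed at an unadjusted p under 0.05, as did 3064 of all 12460 transcripts tested. In damt-1 F1 and F2 the only gene called was ymel-1, against 7.69% and 7.9% of all transcripts called higher. Among 9 genes, 0 or 1 call is near these shares, so the counts do not set these genes apart. ymel-1 had 260.2 and 265 CPM in damt-1 P0, 275 and 269.7 CPM in damt-1 F1 and 275 and 269 CPM in damt-1 F2, against 234 and 257 CPM in damt-1 untreated. The treated libraries were all above the untreated ones, and the log2 difference was 0.15 ± 0.047 in both F1 and F2 (adjusted p = 0.0356 and 0.035). Both calls were lost without damt-1 untreated replicate 1, where the value was 0.08, without either library of the treated group or without WT F2 replicate 2, and DESeq2 gave adjusted p-values of 0.26 and 0.22.

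Both other proteases stayed close to their untreated level in damt-1. spg-7 had 465 and 462 CPM in damt-1 P0, 456 and 452 CPM in damt-1 F1 and 455 and 462 CPM in damt-1 F2, against 427 and 443 CPM in damt-1 untreated. Its treated libraries lay just above the untreated ones, with a log2 difference in F2 of 0.08 and a 95% interval of 0.00 to 0.15 (adjusted p = 0.199). lonp-1 had 453 CPM in both damt-1 P0 libraries, 447 and 460.0 CPM in damt-1 F1 and 456 CPM in both damt-1 F2 libraries, against 430.0 and 448 CPM in damt-1 untreated. Its groups overlapped in F1, and the F2 difference of 0.05 had an interval of -0.02 to 0.13.

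haf-1 had 34 and 34.5 CPM in damt-1 P0, 28.7 and 26.2 CPM in damt-1 F1 and 33.5 and 28.6 CPM in damt-1 F2, against 29.7 and 30.9 CPM in damt-1 untreated. Its P0 libraries were above, its F1 libraries below and its F2 libraries on either side of the untreated ones, with log2 differences of 0.17, -0.14 and 0.04 and intervals of -0.10 to 0.45, -0.43 to 0.14 and -0.24 to 0.32.

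hsp-6 had 723 and 742 CPM in damt-1 P0, 752 and 727 CPM in damt-1 F1 and 721 and 791 CPM in damt-1 F2, against 721 and 701 CPM in damt-1 untreated. The F2 libraries overlapped with the untreated ones, and the F2 log2 difference of 0.09 had an interval of -0.00 to 0.18. hsp-60 had 98.4 and 106 CPM in damt-1 P0, 106 and 105 CPM in damt-1 F1 and 103 CPM in both damt-1 F2 libraries, against 105 and 99.6 CPM in damt-1 untreated. P0 and F2 overlapped with untreated, and the F2 difference of 0.01 had an interval of -0.12 to 0.14.

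phb-1 had 320.2 and 331 CPM in damt-1 P0, 336 and 330.4 CPM in damt-1 F1 and 319.9 and 348 CPM in damt-1 F2, against 333 and 313 CPM in damt-1 untreated. phb-2 had 326 and 334 CPM in damt-1 P0, 345 and 331 CPM in damt-1 F1 and 322 and 363 CPM in damt-1 F2, against 339 and 319.6 CPM in damt-1 untreated. Both prohibitins overlapped with untreated in all 3 generations, and the F2 log2 difference of phb-2, 0.06, had an interval of -0.05 to 0.16. dnj-10, at 6.74 and 6.10 CPM in damt-1 P0, 5.20 and 6.55 CPM in damt-1 F1 and 6.80 and 5.49 CPM in damt-1 F2, overlapped with the 2.70 and 6.59 CPM of damt-1 untreated in every generation. Its F2 interval of -0.42 to 1.21 on the log2 scale includes the WT value.

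The difference between the genotypes in this response was tested as an interaction, the log2 response of damt-1 minus that of WT. In P0, 3 of the 9 genes were called lower, against 11.5% of all transcripts. In F1 there were 5, against 21.7%, and in F2 6, against 21.5%, and no gene was called higher in any generation. The 3 proteases carried the P0 calls, with -0.27 ± 0.052 for spg-7 (adjusted p = 0.000379), -0.23 ± 0.052 for lonp-1 (adjusted p = 0.00182) and -0.19 ± 0.066 for ymel-1 (adjusted p = 0.0371).

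In F1 and F2 the same 3 proteases and haf-1 had the firmest differences. spg-7 stood at -0.46 ± 0.051 in F1 and -0.48 ± 0.051 in F2 (adjusted p = 1.17e-07 and 5.43e-08), and lonp-1 at -0.35 ± 0.052 and -0.38 ± 0.052 (adjusted p = 6.46e-06 and 2.42e-06). ymel-1 stood at -0.42 ± 0.065 in F1 and -0.44 ± 0.065 in F2 (adjusted p = 1.26e-05 and 6.33e-06), and haf-1 at -0.79 ± 0.190 and -0.82 ± 0.186 (adjusted p = 0.00183 and 0.00099). These 8 calls held with any library left out and under the other 9 alternatives, including the scaling on transcripts of low density.

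In P0 the call of spg-7 also held under all 25 alternatives, and that of lonp-1 was lost under the low-density scaling alone (adjusted p = 0.083). The calls of ymel-1 in P0 and of hsp-6, hsp-60 and phb-1 in F1 or F2 depended on single libraries or settings. hsp-6 in F1, at -0.15 ± 0.061 (adjusted p = 0.0499), lost its call in 13 of the 16 fits with a library left out and stood at -0.00 under the low-density scaling. hsp-60 in F2, at -0.26 ± 0.089 (adjusted p = 0.0377), lost it in 7 of 16, and phb-1 in F2, at -0.20 ± 0.068 (adjusted p = 0.0241), in 5 of 16. ymel-1 in P0 lost its call in 8 of 16. The interaction of dnj-10 in F2 was -0.59 with a 95% interval of -1.71 to 0.52, too wide to place it.

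**Figure D3:**
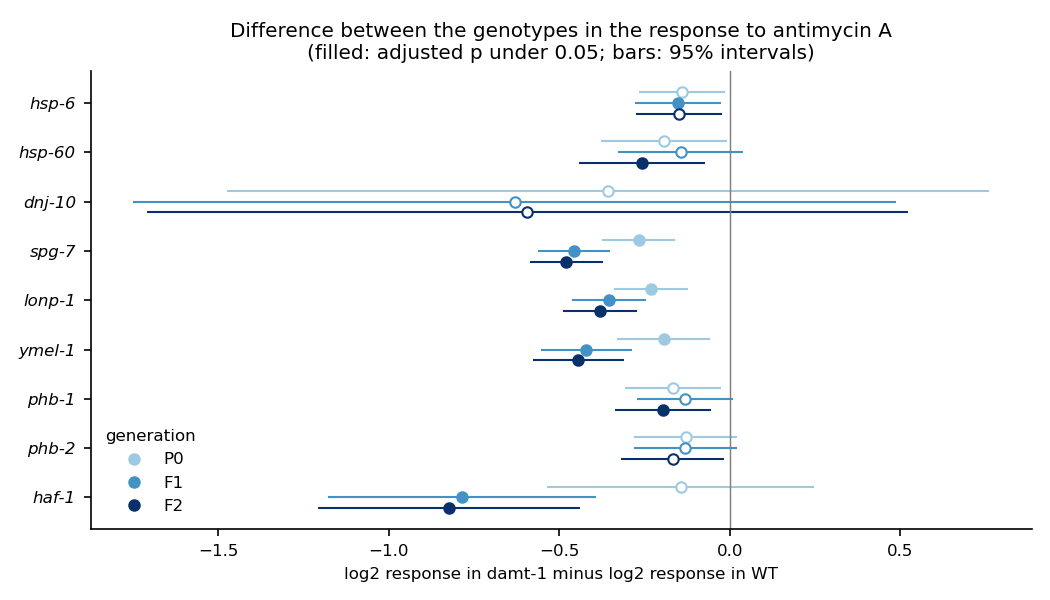
Log2 response to antimycin A in damt-1 minus that in WT (horizontal axis) for 9 genes, with P0, F1 and F2 from top to bottom and light to dark; bars are 95% intervals and filled points passed an adjusted p of 0.05. spg-7, lonp-1, ymel-1 and haf-1 lie between -0.35 and -0.82 in F1 and F2, and all points are below 0.

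The genotypes already differed in the untreated worms. In damt-1 untreated, 6 of the 9 genes were higher than in WT untreated, against 17.9% of all transcripts. The differences were 0.27 ± 0.064 for hsp-60, 0.24 ± 0.037 for spg-7, 0.18 ± 0.049 for phb-1, 0.17 ± 0.048 for ymel-1, 0.14 ± 0.052 for phb-2 and 0.14 ± 0.038 for lonp-1 on the log2 scale. All libraries of these 6 genes were higher in damt-1 than in WT, a separation whose share among all transcripts was not counted. The largest, hsp-60, had 105 and 99.6 CPM in damt-1 untreated, against 86.5 and 82.6 CPM in WT untreated (adjusted p = 0.00139). The calls of hsp-60 and spg-7 held under all 25 alternatives. Without WT untreated replicate 2, those of lonp-1, phb-1 and phb-2 were lost and 3 genes remained called. Without damt-1 untreated replicate 1 those of phb-1 and phb-2 were lost, and without damt-1 untreated replicate 2 those of lonp-1 and ymel-1.

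In treated F1 and F2 worms the proteases and haf-1 were lower in damt-1 than in WT. In P0 only lonp-1 was called, lower in damt-1 at -0.09 ± 0.036 (adjusted p = 0.0486), against 20.2% of all transcripts called lower, and that call was lost in 9 of the 16 fits with a library left out. In F1, 4 genes were lower in damt-1, against 26.9% of all transcripts. These were spg-7 at -0.22 ± 0.035, lonp-1 at -0.22 ± 0.036, ymel-1 at -0.25 ± 0.043 and haf-1 at -0.55 ± 0.129. In F2 the same 4 were lower, against 26% of all transcripts, at -0.24 ± 0.035, -0.24 ± 0.036, -0.27 ± 0.044 and -0.59 ± 0.124. In both generations all libraries of these 4 genes were lower in damt-1 than in WT, again without a count over all transcripts. The low-density scaling moved the median of all transcripts in these comparisons by 0.12 in P0, 0.24 in F1 and 0.22 in F2. Under it haf-1 was still lower, at -0.32 in F1 and -0.37 in F2 (adjusted p = 0.0359 and 0.0106), while every protease call of damt-1 against WT in treated worms was lost. lonp-1 in P0 stood at 0.03, spg-7 in F1 at 0.02 and lonp-1 in F1 at 0.02, a change of sign with no call, and ymel-1 in F1 stood at -0.0089 (adjusted p = 0.90). In F2 spg-7, lonp-1 and ymel-1 stood at -0.022, -0.021 and -0.051 (adjusted p = 0.75, 0.76 and 0.46). Under the same scaling hsp-60 was called higher in damt-1 than in WT in P0, F1 and F2, at 0.20, 0.37 and 0.24. Its adjusted p-values were 0.0308, 9.59e-05 and 0.00764. hsp-6, phb-1 and phb-2 were also called higher in F1, at 0.195, 0.29 and 0.25 (adjusted p = 0.0131, 0.000609 and 0.00317), and again in F2. The distance of haf-1 in F2 from the median of all transcripts, -0.61, was the same under both scalings by construction.

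Between the treated groups of WT, the proteases were higher in F1 and F2 than in P0. Without untreated worms of the F1 and F2 labels, these differences cannot be assigned to treatment or to generation. In F1, 3 genes were higher than in P0, against 12.2% of all transcripts: ymel-1 at 0.28 ± 0.043 (adjusted p = 3.91e-05), spg-7 at 0.16 ± 0.034 (adjusted p = 0.0014) and lonp-1 at 0.12 ± 0.035 (adjusted p = 0.0126). In F2, 4 genes were higher than in P0, against 12.1% of all transcripts, the same 3 at 0.30 ± 0.043, 0.20 ± 0.035 and 0.16 ± 0.035, and haf-1 at 0.54 ± 0.121 (adjusted p = 0.00185). The lonp-1 call in F1 was lost without either WT P0 library, WT F1 replicate 2 or WT F2 replicate 2, and that in F2 without WT F2 replicate 2. With the low-density scaling the calls fell to 1 in F1, ymel-1, and 2 in F2, ymel-1 and haf-1. Between WT F2 and WT F1, 0 genes and 0% of all transcripts were called higher by edgeR. At an unadjusted p under 0.05 stood 0 of the 9 genes and 452 of all 12540 transcripts. Between damt-1 F1 and P0, F2 and P0, and F2 and F1 the share of transcripts called higher was 0% each time. By edgeR 1, 0 and 0 of the 9 genes stood at an unadjusted p under 0.05. Of all transcripts, 555 of 12408, 573 of 12412 and 519 of 12391 did. DESeq2 called 0 of the 9 in these 4 comparisons.

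The spread of the log2 differences in these tables varied with read density. Over 12374 transcripts with a length, hsp-6 and phb-1 had 1.18 counts per nucleotide and phb-2 had 1.15, above 97.8%, 97.8% and 97.6% of transcripts. The 99th percentile was 1.38 counts per nucleotide. spg-7 had 0.629, lonp-1 0.604, ymel-1 0.418, hsp-60 0.183, haf-1 0.0629 and dnj-10 0.0158 counts per nucleotide. Among the 807 transcripts with at least 0.8 counts per nucleotide, the interquartile range of the log2 difference between WT F1 and untreated was 0.154, and 1.86% differed by over 2-fold. Among the 2227 under 0.02 counts per nucleotide the range was 1.35, and 34.3% differed by over 2-fold. hsp-6, phb-1 and phb-2 are in the bin where all transcripts differ least. The part of read density in their values was not tested. Counting noise is larger where reads are few, and its part in the spread of each bin was not tested either.

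**Figure D4:**
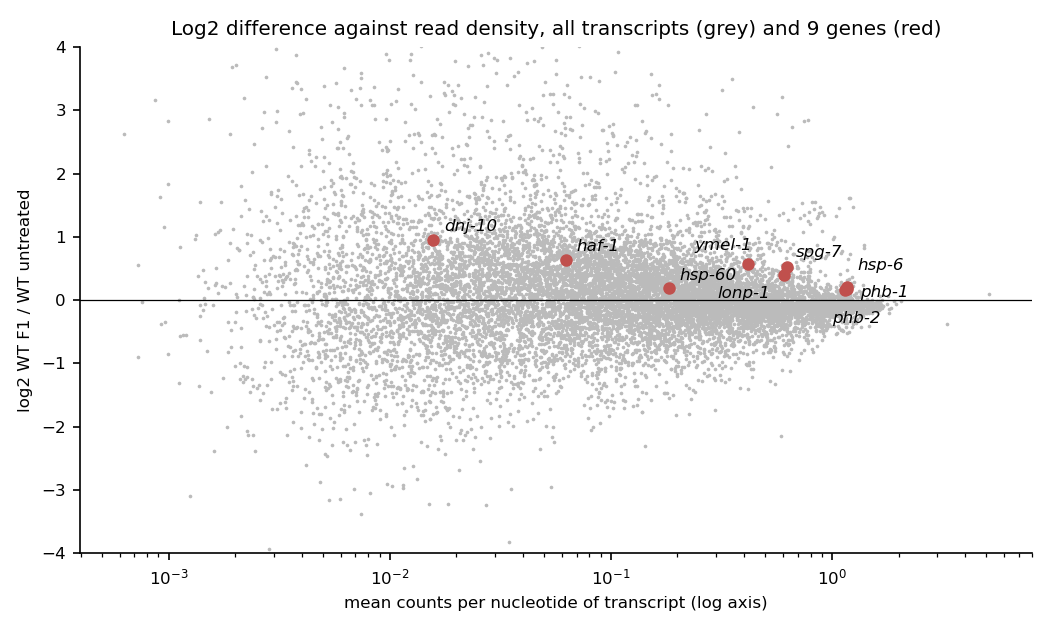
Log2 difference between WT F1 and WT untreated (vertical axis) against mean counts per nucleotide of transcript (horizontal log axis) for all transcripts with a length (grey) and 9 genes (red). Differences narrow as density rises, and hsp-6, phb-1 and phb-2 lie at the dense end; 100 of 12341 transcripts lie beyond the axis, which ends at a log2 difference of 4 in either direction.

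Some genes that work beside the members were called in the same comparisons. These lists were drawn up with earlier results of these data known. The genes named from them were picked by the smallest adjusted p between treated and untreated worms. Those differences also enter the interactions, so the interaction values of the named genes are a description. Of all transcripts, 13%, 26.2% and 25.9% were called higher in WT P0, F1 and F2, and 8.41%, 7.69% and 7.9% in damt-1 P0, F1 and F2. In lists of 5 and 15 genes, 0 calls in damt-1 are near these shares. Of 5 other mitochondrial proteases and peptidases tested, 3 were higher in WT P0, 4 in WT F1 and 4 in WT F2, with 0 lower, and 0 were called in any damt-1 generation. ppgn-1, a paraplegin-like AAA protease subunit, differed by 0.65 in WT F1 and mppa-1, a subunit of the peptidase that removes import signals, by 0.60. In WT F2 the values were 0.67 and 0.61, and the F2 interactions were -0.61 and -0.64 (adjusted p = 1.4e-07 and 3.4e-07). Of 15 genes of the import machinery and its co-chaperones, 6 were higher and 0 lower in each treated WT generation, and 0 were called in damt-1. timm-23, the channel of the inner membrane translocase, differed by 0.40 in WT F1, and tin-44, which docks the import motor to it, by 0.37.

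By contrast, of 13 cytosolic and endoplasmic reticulum chaperones 0 were higher in WT. Those lower were 0 in P0, 5 in F1 and 4 in F2, against 8.14%, 20.7% and 21% of all transcripts. hsp-4, the endoplasmic reticulum Hsp70, differed by -0.19 in WT F2 (adjusted p = 0.001) and by 0.24 in damt-1 F2 (adjusted p = 0.00062). Among 5 tested regulators of the mitochondrial response, only met-2 and ulp-4 were called between treated and untreated worms of a genotype. met-2, a histone H3 lysine methyltransferase, was higher by 0.60 in WT P0 and by 0.82 in WT F1 and F2, and was not called in damt-1. ulp-4, a SUMO protease that acts on ATFS-1, was higher in damt-1 by 0.46 in P0, 0.40 in F1 and 0.34 in F2 (adjusted p = 3.14e-06, 3.39e-05 and 0.000267). In WT it was lower, at -0.18 in F1 and -0.21 in F2 (adjusted p = 0.0119 and 0.00445), and its F2 interaction was 0.55 (adjusted p = 9.24e-06).

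Markers of several tissues and of larval stage moved in the same comparisons. Of all transcripts, 5.68%, 5.53% and 5.84% were called lower in damt-1 P0, F1 and F2, and 8.14%, 20.7% and 21% in WT P0, F1 and F2. The shares called higher are given above with the mitochondrial lists. Of 14 germ line markers 11 were higher and 2 lower in WT F1 and in WT F2, while 0 were higher and 6 lower in each damt-1 generation. Of 6 furrow collagens, which are made in each larval moult, 6 were higher in WT F1 and F2, summing to 1008 to 1015 CPM in F1 against 362 to 366 CPM in WT untreated. In damt-1 untreated they summed to 1601 to 1662 CPM. Of 6 adult cuticle collagens, 1 was higher and 5 lower in WT F1 and F2, while 3 were higher in each damt-1 generation and 1 was lower in P0 and F1. Of 7 pharynx markers, 5 were higher in WT F1 and F2, with 1 lower in F2, and 3 were higher in each damt-1 generation. They summed to 676 to 679.7 CPM in WT F1, against 378 to 418 CPM in WT untreated. Of 6 neuronal markers, 4 were lower in WT F1 and 5 in WT F2, while in damt-1 0 were lower and 1 was higher, in P0. Of 8 hypodermis markers, 5 were higher and 2 lower in WT F1 and F2, and of 15 sperm markers 7 and 6 were higher there. The hypodermis list overlaps with the furrow collagens, as dpy-7 is in both, so their counts are not separate observations. Intestine and body wall muscle markers had calls in both directions in WT F1 and F2. The part of tissue content and of stage in the values of the 9 genes was not tested.

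The pattern of 2 members was set beside transcripts with a mean of at least 10 CPM, by Pearson's r of the mean log2 CPM over the 8 groups, as a description. A minimum SD over the 8 group means was also required of these transcripts, and hsp-6 itself did not reach it. The means come from the same libraries as the tests above, and 7062 transcripts were compared for hsp-6 and 7061 for spg-7. Closest to hsp-6 were rnr-2 (r = 0.990), C34C12.8 (0.982), timm-23 (0.980) and F53B2.8 (0.973). Closest to spg-7 were gfm-1 (r = 0.995), cox-15 (0.994), mrpl-45 (0.994) and tsfm-1 (0.994). Among the members, spg-7 followed lonp-1 at r = 0.979 and ymel-1 at r = 0.973 over the 8 groups, phb-1 followed phb-2 at 0.980, and hsp-60 followed phb-1 at 0.947 and dnj-10 at 0.204.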

How the data were processed

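The 16 libraries of 8 groups hold RNA of whole L4 worms. The authors deposited whole-number counts for each RefSeq transcript in 6 tables, each with 2 treated and 2 untreated libraries, and untreated counts matched between the tables of a genotype (0 differences). The submitters' processing notes name the build ce10 and the tools DESeq2 1.20.0, HISAT2 2.0.5, HTSeq 0.9.1, R 3.5.0, SAMtools 1.3.1 and Trimmomatic 0.35. The role of each and any removal of duplicate reads are not given in the sources used here. The deposited log2 fold changes and adjusted p-value columns are those DESeq2 writes, per the file headers. Left unused were 24 columns of per-sample values in those tables.

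The tests used edgeR 4.0.16 under R 4.3.3 on these counts, with TMM normalization, a filterByExpr minimum of 10 counts that left 12592 transcripts, a robust quasi-likelihood model of 1 mean for each group, and Benjamini-Hochberg adjustment at 0.05 over all transcripts tested in each of 19 comparisons. Every adjusted p in the text is from this edgeR test unless DESeq2 1.42.0 or the authors' tables are named. A transcript missing from a table was untested there. The biological coefficient of variation was 2.18%. Fits were tested on simulated data. CPM use TMM-scaled totals. Lengths and current names came from an annotation of another build, with 98.1% of transcripts matched, and no coordinates were taken from it. Library pairs with the same replicate number had correlations of their deviations between -0.0583 and 0.0358 over 28 pairs. The replicate numbers thus showed no sign of pairing libraries, though counting noise could hide a weak pairing. Replicates differed by more than sampling noise in every group.

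The members and lists were chosen with earlier results of these data known. All members are named; of each other list up to 3 tested genes with the smallest adjusted p in a treated against untreated comparison may be named, and for hsp-6 and spg-7 the 4 transcripts with the most similar pattern. Alternatives were other normalizations, filters, tests and fitted samples, counts summed per symbol, the replicate block, and leaving out each library.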

Additional observations from a re-analysis of the deposited data

Results flagged for a closer look

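With 2 libraries in a group, no library could be tested for standing apart. The results given here differ between damt-1 and WT by the interaction test, as log2 response in damt-1 minus that in WT. In P0 they were spg-7 at -0.27, lonp-1 at -0.23 and ymel-1 at -0.19. In F1 they were haf-1 at -0.79, spg-7 at -0.46, ymel-1 at -0.42, lonp-1 at -0.35 and hsp-6 at -0.15. In F2 they were haf-1 at -0.82, spg-7 at -0.48, ymel-1 at -0.44, lonp-1 at -0.38, hsp-60 at -0.26 and phb-1 at -0.20. The 3 generations of a genotype share their untreated libraries, so these values are not independent of each other. Of all transcripts, 11.5%, 21.7% and 21.5% were called lower by this test in P0, F1 and F2. As given above, the calls of ymel-1 in P0, hsp-6 in F1, and hsp-60 and phb-1 in F2 depended on single libraries or settings.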

How the results depend on the processing

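Over 124 single values and 25 alternatives, 2870 of 3100 recomputed values kept their direction and their side of the threshold, 138 lost a call, 28 gained one and 64 changed sign. Of the sign changes, 57 were between values with no call on either side. The alternatives were chosen with earlier results of these data known, and a group left with 1 library was assumed to vary like the others. Depth limits dnj-10 most, which had 10 to 49 counts in a library.

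Leaving out each library gave 3 to 6 genes called in WT P0, 6 to 9 in WT F1, 8 to 9 in WT F2, 0 to 1 in damt-1 F1 and in damt-1 F2, 3 to 7 in damt-1 against WT untreated, 0 to 1 against WT in P0, and interaction calls of 2 to 3, 4 to 5 and 4 to 8 in P0, F1 and F2. The low-density scaling gave 3, 4 and 5 genes in WT P0, F1 and F2, 0 in damt-1 F1 and F2, 1 for the P0 interaction, and 1 and 2 for WT F1 and F2 against P0. DESeq2, RLE factors, library size alone and counts summed per symbol gave 0 in damt-1 F1 and F2, as did fitting the compared groups alone in F2. The lonp-1 call in P0 against WT was 0 with no count filter, the compared groups alone, summed counts, DESeq2 and the replicate block. The replicate block left every other count within 1.5 times, with 9 genes in WT F1 and F2, and changed 1 further call, that of hsp-6 in the F1 interaction (adjusted p = 0.056). The replicate numbers showed no sign of pairing the libraries, though a weak pairing could be missed. The share of all transcripts called under each alternative is not given here, so these counts stand without a background. The cause of these changes was not tested.

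Under the low-density scaling the sign changed in damt-1 against WT for hsp-6 (0.0897 in P0, 0.195 in F1, 0.184 in F2), spg-7 (0.0873 in P0, 0.0157 in F1), lonp-1 (0.0268 in P0, 0.0227 in F1), ymel-1 (0.0986 in P0), phb-1 (0.21 in F2) and phb-2 (0.20 in F2). Those of hsp-6 in F1 and F2, phb-1 and phb-2 passed the threshold there. It also changed in damt-1 P0 against untreated for phb-1 (-0.00571) and phb-2 (-0.0114), and in the F1 interaction for hsp-60 (0.00809), phb-1 (0.0190) and phb-2 (0.0222).

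Values within 0.02 of 0 changed sign elsewhere. In damt-1 P0 phb-1 stood at -0.00213 and phb-2 at -0.00782 with RLE factors, -0.00994 and -0.0156 with library size alone, -0.0113 and -0.0170 with summed counts, and -0.00265 and -0.00837 with DESeq2. hsp-60 in damt-1 F2 stood at -0.0168 with library size alone and -0.00450 with summed counts. Against WT, library size alone gave -0.00105 for phb-1 and -0.00225 for phb-2 in P0, -0.0129 for phb-2 in F1 and -0.00756 for hsp-60 in F2, the 10 CPM filter gave -0.00287 for phb-2 in F1, and summed counts gave 0.00521 for phb-1 in F2.

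With a library left out, sign changes gave these ranges against untreated. In damt-1 P0 they were hsp-60 -0.055 to 0.049, dnj-10 -0.037 to 1.24, phb-1 -0.037 to 0.056 and phb-2 -0.038 to 0.045. In damt-1 F1 they were dnj-10 -0.162 to 1.117 and phb-2 -0.0028 to 0.080. In damt-1 F2 they were hsp-60 -0.023 to 0.048, dnj-10 -0.092 to 1.19, phb-1 -0.011 to 0.11, phb-2 -0.029 to 0.14 and haf-1 -0.083 to 0.15. Against WT they were dnj-10 -0.76 to 0.52 in untreated worms, ymel-1 -0.052 to 0.0022, phb-1 -0.027 to 0.052 and phb-2 -0.024 to 0.047 in P0, hsp-6 -0.068 to 0.0010 and phb-2 -0.016 to 0.058 in F1, and hsp-6 -0.11 to 0.022, phb-1 -0.078 to 0.043 and phb-2 -0.11 to 0.060 in F2. The interaction of dnj-10 ran from -0.85 to 0.43 in P0, -1.117 to 0.162 in F1 and -1.09 to 0.19 in F2.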

Other observations

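haf-3, another half-transporter of the family of haf-1, differed by 0.66 in WT P0, 1.00 in WT F1 and 1.01 in WT F2 on the log2 scale (adjusted p = 1.3e-10, 6.7e-15 and 6.2e-15, edgeR), and its F2 interaction was -0.79. Of the 6 haf genes other than haf-1 that were tested, 2 were higher and 0 lower in WT F2, against 25.9% and 21% of all transcripts. In WT F1, 7 of 24 DnaJ genes other than dnj-10 were higher and 8 lower, and 3 of 17 bZIP factors were higher and 4 lower, where 26.2% of all transcripts were higher and 20.7% lower.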
